A study of Mus musculus with 20 samples.

Results

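Pcx, Mdh1, Idh3a and Sdhb, which encode 4 enzymes at the entry to, within and beside the citric acid cycle, were followed through the change of 3T3-L1 mouse fibroblasts into fat cells. They were read from every probe set that the platform annotation gives to 1 of these symbols alone, with the array maker's own control probe sets for mouse pyruvate carboxylase as further measures of Pcx. That made 4 of the 6137 genes with a probe set of 1 symbol, and 12 of 13179 probe sets: 9 for Pcx and 1 for each of the other genes. Total RNA of the cells had been labelled with biotin and put on 2 Affymetrix array types, called array A and array B here. Every sample was 3T3-L1, an established line of fibroblasts with no genotype or transgene named in the labels. The cells were sampled before induction, as preconfluent and as confluent cultures, and after induction of differentiation with MDI (the usual name for insulin given with dexamethasone and isobutylmethylxanthine), at 6, 12 and 24 hours and on days 2, 3, 4, 7 and 28. The labels name no uninduced culture of the same age as the induced ones, so time in culture and induction cannot be told apart. Each time point was 1 sample on each array type, without a replicate, and the labels do not say whether 1 extract served both array types.

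Pyruvate carboxylase (Pcx) is a mitochondrial enzyme that carries biotin and makes oxaloacetate from pyruvate. Oxaloacetate condenses with acetyl-CoA to citrate, and in fat cells citrate can leave the mitochondrion and be split in the cytosol to give the acetyl-CoA from which fatty acids are built. Isocitrate dehydrogenase 3 (Idh3a is its alpha subunit) makes 2-oxoglutarate and NADH within the cycle. Succinate dehydrogenase (Sdhb is its iron-sulphur subunit) is both a cycle enzyme and a complex of the respiratory chain. Malate dehydrogenase 1 (Mdh1) is the cytosolic malate dehydrogenase, which returns oxaloacetate to malate outside the mitochondrion.

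Because all 4 genes were called higher in late cells, though along different courses, the DNA just before their transcription starts is given here, from the RefSeq promoter table of build GRCm38.p6. The table held an entry for 3 of the 4 genes, with 2 starts for Pcx. The 250 bases before each start are printed 5′ to 3′ on the gene's strand, and capitals mark the letters of 3 motifs on either strand: the CCAAT box (CCAAT), the GC box (GGGCGG) and the core that many nuclear receptors bind (AGGTCA). The upstream start of Pcx is preceded by chr19:4510222-4510471 (plus strand), the downstream one by chr19:4594069-4594318 (plus), Mdh1 by chr11:21571935-21572184 (minus) and Sdhb by chr4:140961021-140961270 (plus).
Pcx, upstream start: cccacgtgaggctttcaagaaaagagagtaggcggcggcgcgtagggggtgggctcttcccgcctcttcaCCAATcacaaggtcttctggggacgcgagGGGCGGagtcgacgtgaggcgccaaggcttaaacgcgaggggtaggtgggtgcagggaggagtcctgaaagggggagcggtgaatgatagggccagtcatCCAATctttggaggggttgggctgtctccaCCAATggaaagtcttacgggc
Pcx, downstream start: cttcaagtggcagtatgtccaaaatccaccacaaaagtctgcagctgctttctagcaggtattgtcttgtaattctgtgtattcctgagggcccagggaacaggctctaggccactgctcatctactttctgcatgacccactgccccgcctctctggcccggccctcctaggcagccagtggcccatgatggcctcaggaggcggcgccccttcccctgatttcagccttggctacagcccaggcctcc
Mdh1: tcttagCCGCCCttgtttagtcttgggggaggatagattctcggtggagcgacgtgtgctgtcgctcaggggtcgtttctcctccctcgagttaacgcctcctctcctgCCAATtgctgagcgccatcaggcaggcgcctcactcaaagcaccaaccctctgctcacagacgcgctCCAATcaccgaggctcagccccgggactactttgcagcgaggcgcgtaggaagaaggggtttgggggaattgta
Sdhb: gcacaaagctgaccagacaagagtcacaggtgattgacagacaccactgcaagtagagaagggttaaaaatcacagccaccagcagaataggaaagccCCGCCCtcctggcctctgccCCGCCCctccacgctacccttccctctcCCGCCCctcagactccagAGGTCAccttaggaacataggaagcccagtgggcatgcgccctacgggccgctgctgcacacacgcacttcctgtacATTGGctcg

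CCAAT lay 3 times before the upstream start of Pcx, 2 times before Mdh1 and 1 time before Sdhb, and 33.8% of all 32851 stretches of this length in the table held it. GGGCGG lay 1 time before the upstream start of Pcx, 1 time before Mdh1 and 3 times before Sdhb. At least 1 match to it was held by 32.7% of all stretches. The members' stretches were 58.0% to 60.8% G and C, and the median over all stretches was 52.4%. AGGTCA lay 1 time, before Sdhb (14.0% of all stretches), and CACGTG, an E-box, 1 time, before the upstream start of Pcx (6.02%). TGACG, the core of a cyclic AMP element (17.8%), had no match in the 4 stretches. The stretch before the downstream start of Pcx held none of the 5 motifs. No match overlapped another. A match describes letters and not a bound site, and none of the 9 Pcx probe sets is annotated to 1 start, so the array values do not separate the 2.

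The deposited intensities had the same trimmed mean on all 20 arrays (500.9 to 501.1). Negative values made up 22.8% to 25.5% of an array of type A and 29.7% to 31.2% of one of type B. Values under a floor of 137 (array A) or 156 (array B) were therefore set to the floor before log2 was taken, and a value at the floor has no order. Of 13179 probe sets, 7590 passed the filter on low values and were tested, all 12 of the members among them. The members' own rise could carry a probe set past that filter, so the passing is not support. As a check of the cell type, 10 of 12 adipocyte markers were on the arrays, and their summed intensity, with negative values counted as 0, went from between 3096 and 10811 before induction to between 119810 and 143690 on days 4 to 28. Lpl alone made up 1940 of the 3096 in preconfluent and 9280 of the 10811 in confluent cells. The brown fat marker Ucp1 was at or below the floor in every sample. The macrophage markers Adgre1, Csf1r and C1qa and the endothelial markers Pecam1, Cdh5 and Tie1 were likewise at or below the floor throughout. Some other markers of the macrophage and endothelial lists were above it in every sample, and Cd68, C1qc and Tek were above it in some samples only. Among macrophage markers above it throughout, Cd14 read between 1000 and 2470, C1qb between 445 and 897 and Lyz2 between 140 and 1650. Among endothelial markers above it throughout, Kdr read between 538 and 1010 and Icam2 between 372 and 791. In such bulk RNA, fewer cells of a type and less RNA per cell cannot be told apart.

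For the tests the time points were put into 4 stages. The stage before induction held the preconfluent and the confluent sample (n = 2). The early stage held 6, 12 and 24 hours (n = 3), the middle stage days 2 and 3 (n = 2), and the late stage days 4, 7 and 28 (n = 3). Folds are ratios of geometric stage means, "at least" marks a dimmer stage with a sample at the floor, and errors are standard errors of the log2 change from limma. Adjusted p-values are limma's with Benjamini-Hochberg adjustment over all 7590 probe sets, and under 0.05 is a call. The spread behind each p-value is that among the different time points within a stage, which may hold technical differences as well as true change with time. A stage with all its samples at the floor adds no spread, so p-values that use it may be too small.

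All 4 genes were higher in late cells than before induction. With all time points and the floor given above, 7 of the 9 Pcx probe sets changed more than Mdh1, Idh3a and Sdhb did. Without day 4 the 5-prime and middle A sets of array B did not (log2 change 2.86 each, Mdh1 2.88). Over all alternative settings the lowest value was 2.79 for the Pcx gene probe set and 2.28 for the 5-prime set of array B. For Mdh1 it was 2.88. All 12 member probe sets, 9 of them repeated measures of Pcx that are not independent, were called higher in late versus before. There, 11.0% of all tested probe sets were called and 5.92% were called higher. The groups did not overlap in any of the 12, and in 37.3% of all tested probe sets they did not overlap either. Over all tested probe sets the median log2 change was -0.05.

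Pcx, read at its 3-prime end on array A, had an intensity of 234 in preconfluent and 462 in confluent cells, 589, 1520 and 2350 at 6, 12 and 24 hours, 7590 and 8780 on days 2 and 3, and 14100, 7350 and 7110 on days 4, 7 and 28. Both samples from before induction were the lowest and the day 4 sample was the highest. The late stage was 27.5-fold above the one before induction (log2 change 4.78 ± 0.55, limma adjusted p = 0.000661). The same control on array B read 293, 680, 897, 2220, 3730, 7460, 8310, 10400, 9450 and 6800 over the same 10 time points, a 19.6-fold rise (4.29 ± 0.57, limma adjusted p = 0.0028) that was 12.9-fold without the preconfluent and 29.8-fold without the confluent sample. Array B repeated the order of array A from preconfluent to day 4, and its day 7 value lay nearer to the day 4 value.

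The probe set for the Pcx gene itself, on array A, read -42 and 71 before induction, 138, 427 and 567 in the early samples, 1560 and 1570 in the middle ones and 3060, 1620 and 1380 in the late ones. Its signal was under the floor in both samples from before induction, so the rise was at least 13.9-fold (3.79 ± 0.54 with the floor in place, limma adjusted p = 0.00209). The control called middle B was also under the floor there on both array types: it read -347 and -535 on array A and -60 and 35 on array B. In late samples it read 7730, 4490 and 4970 on array A and 8900, 6200 and 4780 on array B. These gave the highest bounds among the members, at least 40.6-fold on array A (limma adjusted p = 0.000344) and at least 41.1-fold on array B (limma adjusted p = 0.000345).

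The remaining Pcx controls gave smaller folds. That of middle A on array A is a bound, so its rise cannot be ranked. Toward the 5-prime end, array A read 174 and 160 before induction and 577, 1150 and 970 late, a 5.17-fold rise (2.37 ± 0.44, limma adjusted p = 0.00718). Array B read 159 and 181 and then 2320, 1280 and 1180, an 8.95-fold rise (3.16 ± 0.29, limma adjusted p = 0.000647). The control called middle A rose at least 5.93-fold on array A (-169 and 394 before, 1610, 1290 and 1260 late; limma adjusted p = 0.0119) and 9.14-fold on array B (323 and 317, then 4670, 2470 and 2170; limma adjusted p = 0.00121). On array A both calls depended on the samples from before induction: the 5-prime call was lost without the preconfluent (limma adjusted p = 0.0541) or the confluent sample (0.0528), and that of middle A without the preconfluent sample (0.129). The bound for middle A on array A was 3.50-fold without the preconfluent sample and 10.1-fold without the confluent one. The other 10 member probe sets kept their call whichever time point was left out.

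**Figure D1:**
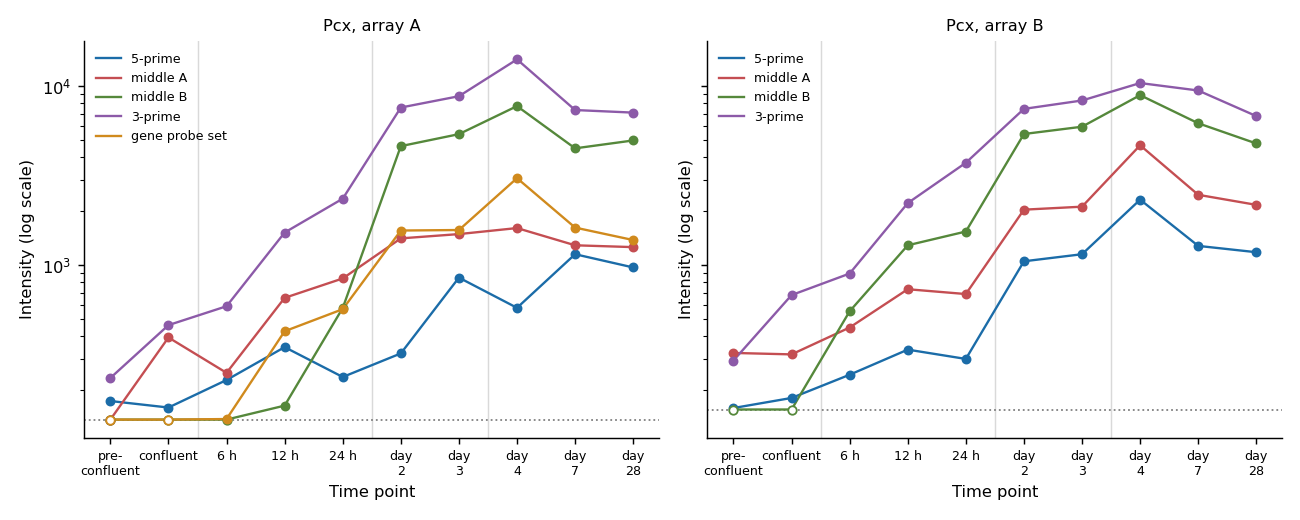
Intensity of every Pcx probe set (log scale) against time point, array A on the left and array B on the right, 1 line per probe set and 1 point per sample. Open points are values at or below the floor (dotted line: 137 on array A, 156 on array B), grey lines part the 4 stages, and levels of different probe sets are not comparable; 8 of the 9 lines peak on day 4, while the 5-prime set of array A peaks on day 7.

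Mdh1 read 1100 and 1230 before induction, 1380, 2170 and 1590 at 6, 12 and 24 hours, 4460 and 8040 on days 2 and 3 and 11900, 7970 and 9210 on days 4, 7 and 28. The samples from before induction were the lowest, and all 5 samples from day 2 on lay above all 5 earlier ones. The rise from before to late was 8.22-fold (3.04 ± 0.35, limma adjusted p = 0.000647). Mdh1 and Sdhb were each read from 1 probe set that the maker marks as shared within a gene family, so transcripts of related genes may add to their signal.

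Idh3a read 388 and 232 before induction, 415, 289 and 363 early, 1190 and 1460 in the middle stage and 1120, 1870 and 1690 late. It showed a single step: the 5 samples up to 24 hours lay between 232 and 415, and the 5 from day 2 on between 1120 and 1870. Late cells were 5.08-fold above those before induction (2.34 ± 0.35, limma adjusted p = 0.00252).

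Sdhb read 1460 and 1530 before induction, 1940, 1830 and 1480 early, 2710 and 3820 in the middle stage and 6210, 5090 and 6530 late. Its levels stayed between 1460 and 1940 up to 24 hours, and each of the middle samples lay below each of the late ones. Its 3.95-fold rise from before to late was the smallest of the members (1.98 ± 0.29, limma adjusted p = 0.00247). The sizes of the rise were not tested against each other between genes.

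**Figure D2:**
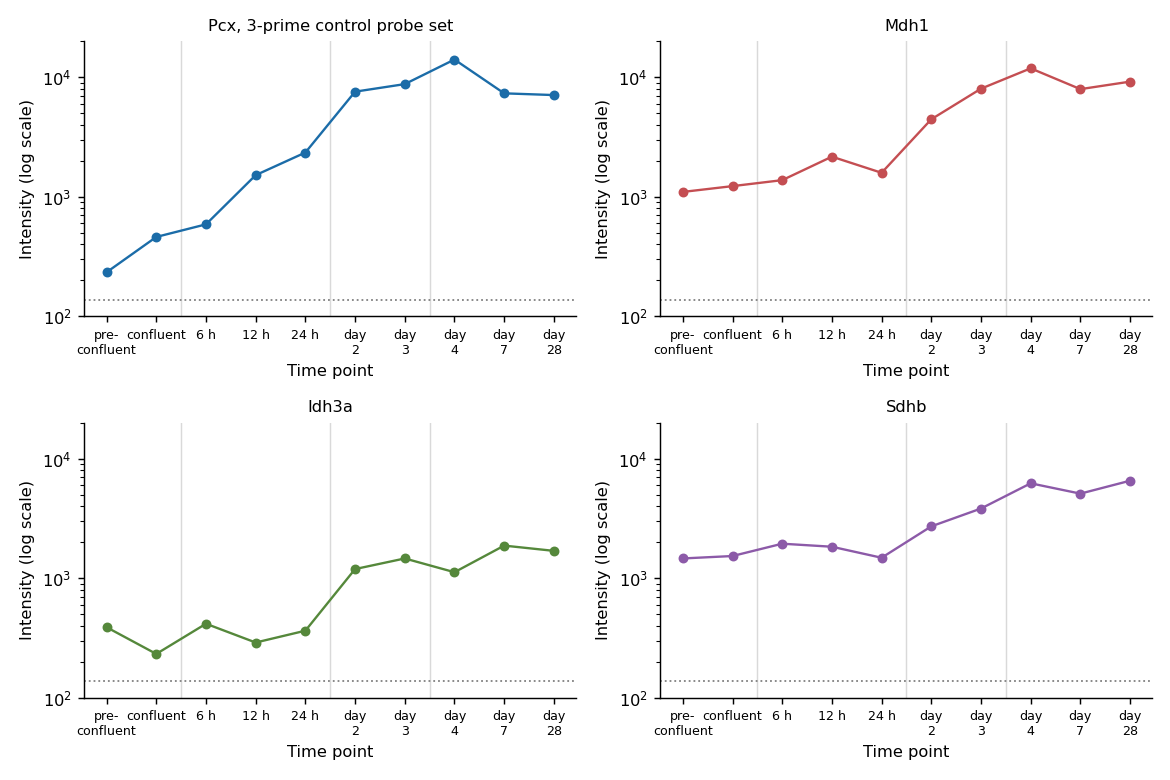
Intensity on array A (log scale) against time point for Pcx (3-prime control probe set), Mdh1, Idh3a and Sdhb, 1 point per sample. The dotted line is the floor of 137 and grey lines part the 4 stages; Pcx climbs from 234 to 2350 within the samples up to 24 hours, while Sdhb lies between 1460 and 1940 there.

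Within the first 24 hours the data held a single call among the members, for Pcx. In early versus before, 1 of 12 member probe sets was called, where 0.369% of all probe sets were called and 0.211% were called higher. It was the middle B control of array B, which read 552, 1290 and 1540 early, at least 6.61-fold above the floor it had before (2.72 ± 0.42, limma adjusted p = 0.0441). That call was lost when any time point other than 6 hours was left out (limma adjusted p between 0.0696 without day 28 and 0.237 without the preconfluent sample), and it held without 6 hours (0.0137). The 3-prime controls of Pcx were 3.90-fold (array A, limma adjusted p = 0.217) and 4.37-fold higher (array B, 0.225) and did not pass. At an unadjusted p under 0.05 were 6 of the 9 Pcx probe sets (9.28% of all probe sets), and in 7 of the 9 the early samples did not overlap those from before (22.3% of all). For Mdh1 the early stage was 1.45-fold higher (limma adjusted p = 0.776), for Idh3a 1.17-fold (0.951) and for Sdhb 1.16-fold (0.932).

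The timing was also described as the share of the log2 rise, from the mean before induction to the highest sample, that a gene had covered at a given time. At 24 hours this share was 52.3% and 67.4% for the 3-prime controls of Pcx on arrays A and B, 45.7% for its gene probe set, 35.6% and 56.6% for middle B, 66.5% and 28.6% for middle A, and 18.2% and 21.7% for the 5-prime controls. It was 13.4% for Mdh1, 10.4% for Idh3a and -0.665% for Sdhb, so at 24 hours each Pcx probe set was further along than the other genes. This order did not hold at other times. At 12 hours the shares of Pcx ran from 4.46% (middle B, array A) to 53.6% (middle A, array A), beside 26.8% for Mdh1, -2.05% for Idh3a and 13.7% for Sdhb. On day 2 those of Pcx ran from 33.9% (5-prime, array A) to 93.1% (middle A, array A), beside 57.8% for Mdh1, 75.3% for Idh3a and 40.4% for Sdhb. Where Pcx started from the floor its share is not exact, and all shares rest on 1 sample per time point and were not tested.

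From the early to the middle stage, 6 of the 12 member probe sets were called higher, where 1.09% of all probe sets were called and 0.804% were called higher. Of these, 4 were Pcx controls: middle B on array A (164 and 576 at 12 and 24 hours, under the floor at 6 hours, then 4620 and 5390; at least 21.3-fold, limma adjusted p = 0.00363), the 3-prime set of array A (6.37-fold, 0.0486), the 5-prime set of array B (3.78-fold, 0.0238) and middle B on array B (5.49-fold, 0.0364). Mdh1 was 3.56-fold (1.83 ± 0.35, limma adjusted p = 0.0339) and Idh3a 3.75-fold higher (1.91 ± 0.35, 0.0282). The Pcx gene probe set was 4.86-fold higher and missed the threshold (limma adjusted p = 0.0781), as did Sdhb at 1.85-fold (0.207). An unadjusted p under 0.05 was met by 11 of the 12 (12.4% of all probe sets), and the stages did not overlap in 11 of the 12 (29.2% of all). In each of these counts 8 were Pcx probe sets, which measure 1 gene at the same time points. The calls rested on few samples. None of the 6 held without day 3 (highest limma adjusted p 0.394), 1 held without 12 hours, 2 each without 6 hours or day 2, 3 each without the preconfluent, confluent or day 28 sample, 4 without day 7 and 5 each without 24 hours or day 4.

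No member probe set was called by limma between the middle and the late stage, where 0.290% of all probe sets were called. Sdhb alone reached an unadjusted p under 0.05, as 12.1% of all probe sets did (1.84-fold higher, limma adjusted p = 0.257). Its 2 middle samples lay below its 3 late ones, and in 27.2% of all probe sets the stages did not overlap. The same held for the 5-prime (1.38-fold higher, limma adjusted p = 0.571) and middle A sets (1.41-fold, 0.614) of Pcx on array B. Over all 9 Pcx probe sets the log2 change ran from -0.07 to 0.72. For Mdh1 the late stage was 1.60-fold higher (limma adjusted p = 0.472), for Idh3a 1.16-fold (0.871) and for Pcx at the 3-prime end 1.11-fold on both array types (0.964 each). Within the late stage, the day 4 value of Pcx was above that of day 7 by a factor of 1.92 (3-prime, array A), 1.89 (gene probe set), 1.10 (3-prime, array B) and 1.81 (5-prime, array B), with the 5-prime set of array A the exception at 0.502. Mdh1 was likewise higher on day 4 than on day 7, by a factor of 1.49. Idh3a was lower on day 4 than on day 7 (factor 0.599) and Sdhb was at its highest on day 28.

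Over the whole course, limma's F test of a smooth curve through the 10 time points called all 12 member probe sets, where 16.9% of all probe sets were called. The adjusted p lay between 4.41e-05 (3-prime set of array B) and 0.00578 (5-prime set of array A) for Pcx and was 0.000844 for Mdh1, 0.00343 for Idh3a and 0.00443 for Sdhb. All 12 calls held whichever time point was left out.

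The Pcx controls lie along 1 transcript, and the ratio of its 2 ends is given here as a description. Levels of different probe sets are not comparable, so the ratio does not measure how evenly the transcript was covered. The 3-prime over 5-prime ratio of Pcx on array A was 1.34 in preconfluent cells, 2.89 in confluent ones, 2.58, 4.37 and 9.92 at 6, 12 and 24 hours, 23.6 and 10.3 on days 2 and 3 and 24.4, 6.39 and 7.33 on days 4, 7 and 28. On array B it was 1.84, 3.76, 3.68, 6.59, 12.5, 7.10, 7.23, 4.48, 7.38 and 5.76. In both array types it was lowest in preconfluent cells and higher at 12 and 24 hours than in any earlier sample. On days 2 and 4 the 2 array types parted: the ratio was at its highest on array A and not on array B.

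In the same samples the ratio for Gapdh, a glycolytic enzyme, ranged from 0.986 to 1.61 (array A) and from 0.722 to 0.815 (array B). That for Actb, cytoplasmic actin, ranged from 1.05 to 1.72 and from 0.801 to 1.11. On array A these ratios were, like that of Pcx, lowest in preconfluent cells. Array B did not repeat this: there the Gapdh ratio was highest in preconfluent cells (0.815) and that of Actb was lowest at 6 hours (0.801). The 5-prime control of Pcx read 3.27 and 4.02 times as much on array B as on array A on days 2 and 4, and between 0.914 and 1.35 times as much at the other 8 time points. The 3-prime control read between 0.738 and 1.59 times as much throughout. Low 5-prime values close to the floor before induction enter these ratios, and the part of RNA length in the Pcx result was not tested. The 9 Pcx probe sets measure 1 gene at the same time points and are not independent of each other. All 9 were called higher in late versus before. The calls of the 5-prime and middle A sets on array A depended on the samples from before induction, as given above.

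**Figure D3:**
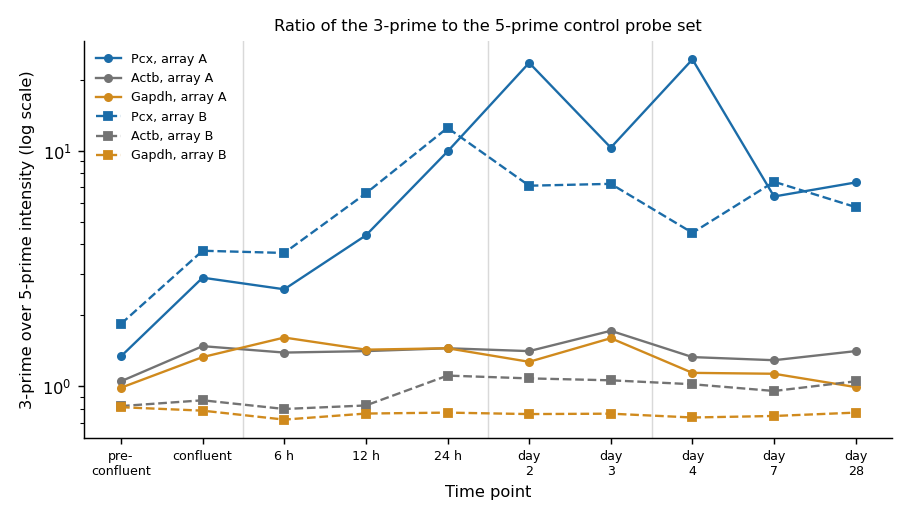
Intensity of the 3-prime control divided by that of the 5-prime control (log scale) against time point for Pcx, Actb and Gapdh, circles and solid lines for array A, squares and broken lines for array B, 1 point per array. The Pcx ratio runs from 1.34 to 24.4 on array A and from 1.84 to 12.5 on array B, while those of Actb and Gapdh stay between 0.722 and 1.72.

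Some enzymes related to the members passed the same test and others did not. Mdh2, the mitochondrial malate dehydrogenase, read 3040 and 2350 before induction and 8940, 6770 and 8380 late, a 2.98-fold rise (1.58 ± 0.31, limma adjusted p = 0.00922), beside the 8.22-fold rise of Mdh1. The Mdh2 call was lost without the confluent sample (limma adjusted p = 0.0646). A dimmer Mdh2 probe set on array B read between 191 and 413 and was 1.45-fold higher in late cells (limma adjusted p = 0.247). Both Mdh2 probe sets were thus higher and only that of array A was called. The maker marks the array A set, too, as shared within a gene family. Idh3g, the gamma subunit that pairs with Idh3a, was 2.09-fold higher (limma adjusted p = 0.076 for late versus before; 0.0154 for the smooth curve).

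Idh2, the mitochondrial isocitrate dehydrogenase that makes NADPH, read 2280 and 3570 before induction and 3430, 2520 and 2780 late, 1.01-fold apart (limma adjusted p = 0.991). Idh1, its cytosolic counterpart, was 2.25-fold higher (limma adjusted p = 0.196), and read 2860 in confluent cells and 755 at 6 hours, in 1 sample each. Of the membrane anchors of succinate dehydrogenase, Sdhc and Sdhd had no value above the floor in any sample and were not tested. Differences between a member and its sister enzymes were not tested.

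**Figure D4:**
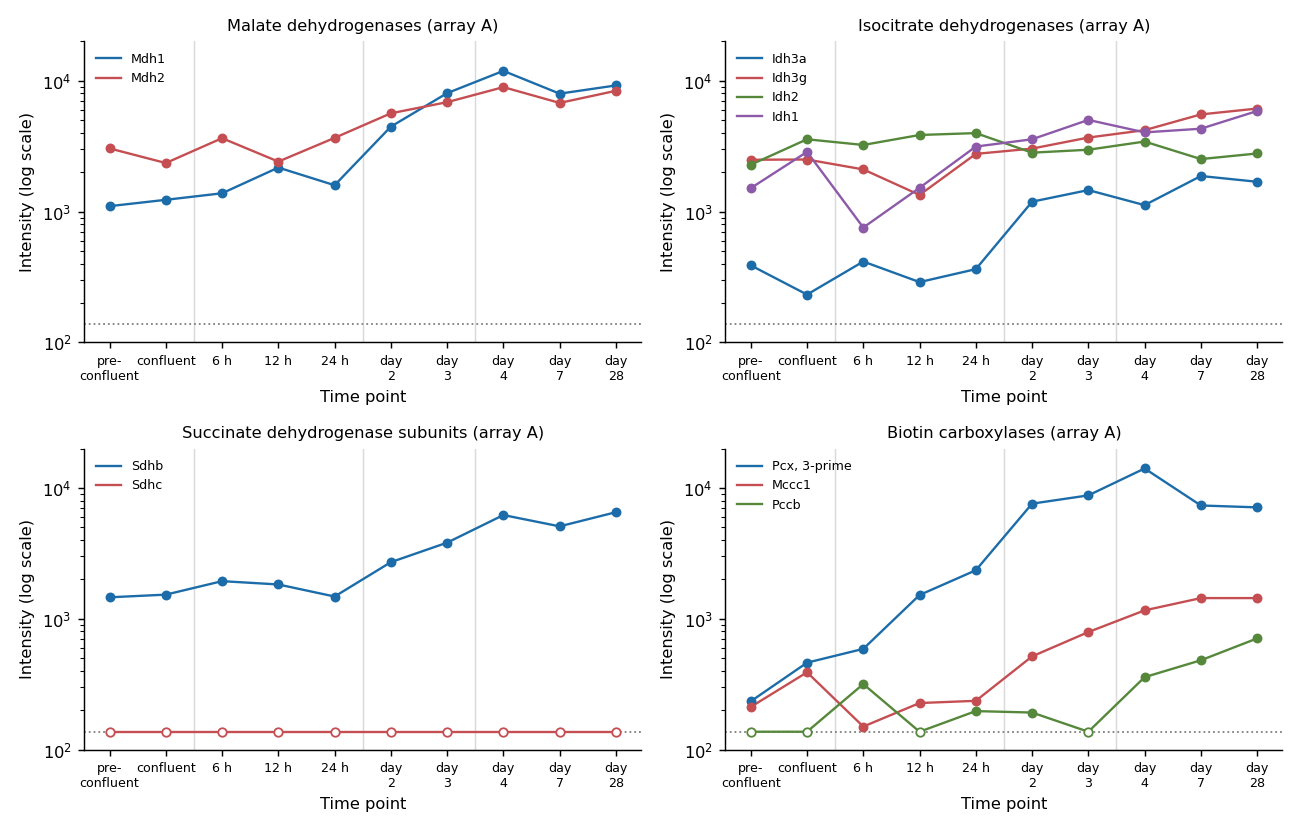
Intensity on array A (log scale) against time point for each member beside related enzymes: Mdh1 and Mdh2, Idh3a with Idh3g, Idh2 and Idh1, Sdhb and Sdhc, and the biotin carboxylases Pcx (3-prime), Mccc1 and Pccb. Open points are values at or below the floor of 137 (dotted line), and levels of different genes are not comparable; Idh2 stays between 2280 and 3980 while Idh3a goes from 388 to 1690 between the first and the last sample.

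Among the other genes of the pathway, a list of 57 covering the cycle, pyruvate entry, citrate and malate transport, biotin enzymes and glycerol synthesis, 31 were on the arrays and 27 were tested. Here too a gene's own rise could carry it past the filter, as for Gpd1, which exceeded the limit only from day 2 on. In late versus before, 11 of the 27 were called higher and 0 lower, with a median log2 change of 1.10. Of all tested probe sets, 11.0% were called there and 5.92% were called higher. The largest was Gpd1, the cytosolic glycerol-3-phosphate dehydrogenase that supplies the glycerol backbone of fat: under the floor in all 5 samples up to 24 hours, it read 677 and 11200 on days 2 and 3 and 11900, 12500 and 9660 late (at least 72.3-fold, limma adjusted p = 0.0046). In the cycle itself Dld, a subunit shared with the pyruvate dehydrogenase complex, rose 3.87-fold (limma adjusted p = 0.00729) and Suclg1, a subunit of succinyl-CoA ligase, 3.33-fold (0.00565). Cs, citrate synthase, was 2.13-fold higher and did not pass (0.0914).

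Of the carriers and enzymes that take citrate and malate across the mitochondrial membrane or use them outside it, Slc25a1, the citrate carrier, rose 2.94-fold (limma adjusted p = 0.0158), Slc25a10, the dicarboxylate carrier, 5.10-fold (0.0111) and Aco1, cytosolic aconitase, 2.77-fold (0.0143). Acly, which splits citrate in the cytosol, was 1.12-fold higher (0.862), with its highest value of 6060 on day 28. Of the other biotin enzymes, Mccc1 rose 4.66-fold (limma adjusted p = 0.00389) and Pccb at least 3.62-fold (0.0145). At the pyruvate branch, Ldhb rose 6.98-fold (limma adjusted p = 0.0353) and Pdk1, a kinase that shuts pyruvate dehydrogenase, at least 3.82-fold (0.0135), while the subunit Pdha1 was 1.89-fold higher and did not pass (0.183). Of the 11 calls, 5 held without the preconfluent sample (Dld, Gpd1, Mccc1, Mdh2 and Suclg1) and 4 without the confluent one (Gpd1, Ldhb, Mccc1 and Suclg1). The Ldhb call was also lost without 24 hours or any 1 of days 2, 3, 4, 7 and 28 (limma adjusted p between 0.0502 and 0.0863), while a second Ldhb probe set was 9.98-fold higher (0.014).

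In the other comparisons the 27 genes gave few calls: 0 in early versus before, 1 in middle versus early (Aco1, 3.28-fold, limma adjusted p = 0.0337) and 0 in late versus middle. Of all probe sets, 0.369%, 1.09% and 0.290% were called in these comparisons. At an unadjusted p under 0.05 were 1, 11 and 6 of the 27, where 9.28%, 12.4% and 12.1% of all probe sets were. The Aco1 call was lost without any 1 of 8 time points, all but days 4 and 7. The smooth curve called 15 of the 27, where 16.9% of all probe sets were called. One of them, Glud1, glutamate dehydrogenase, went from 1050 in confluent cells to 4060 on day 4 and then to 1210 and 716 on days 7 and 28, a course that its second probe set repeated with 4100, 1110 and 713.

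**Figure D5:**
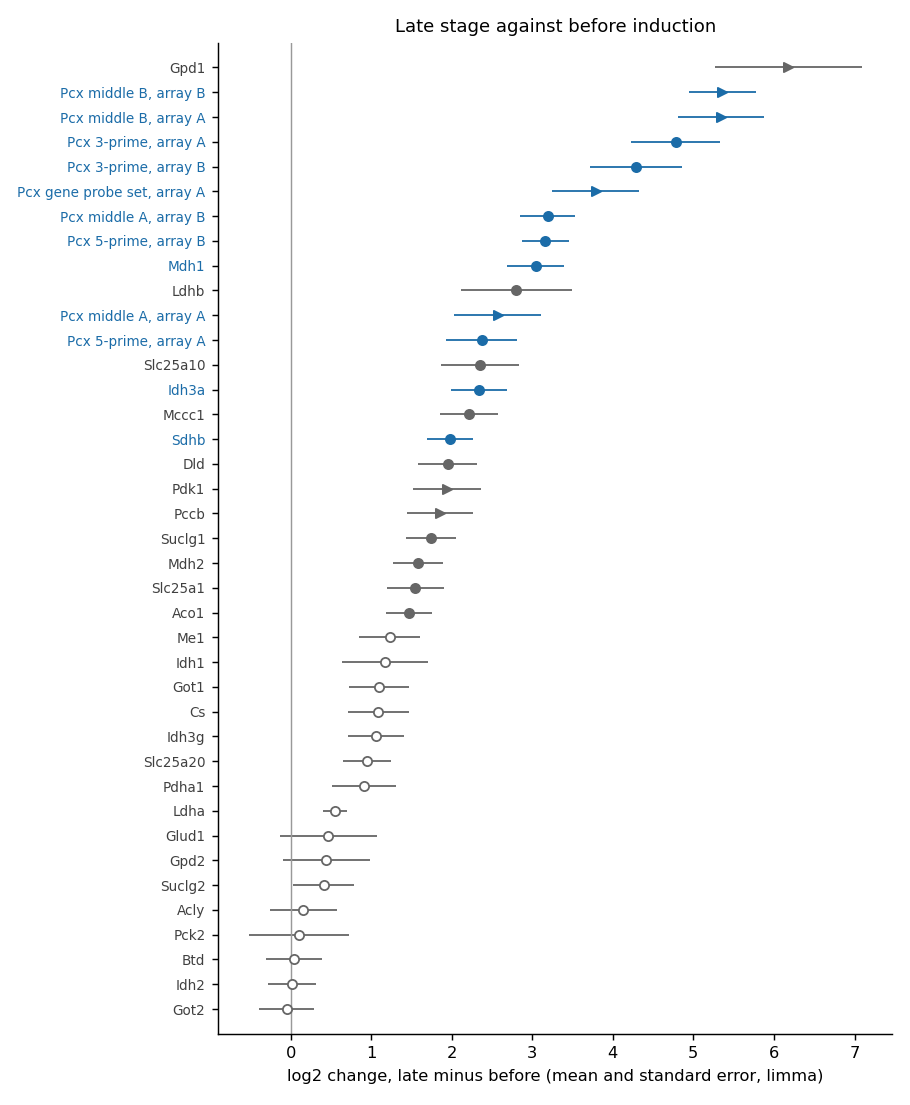
Log2 change from before induction to the late stage (mean and standard error from limma) for the 12 member probe sets (blue) and the 27 other tested pathway genes (grey). Filled symbols passed the adjusted threshold of 0.05 and triangles mark changes that are lower bounds; all 12 blue symbols lie between 1.98 and 5.36, and the grey ones between -0.05 (Got2) and 6.18 (Gpd1).

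By a fixed rule, the 5 genes of the 4107 ranked whose log2 course over the 10 time points was most like that of a member were named by Pearson's r, as a description. For Pcx (3-prime, array A) these were Tob1 (0.978), an antiproliferative factor, Hsd11b1 (0.970), which makes active glucocorticoid, Uqcrfs1 (0.964), a subunit of respiratory complex III, Pam16 (0.960), of the mitochondrial import motor, and Adipor2 (0.957), an adiponectin receptor. Tob1 read 312 and 361 before induction, 1160 at 24 hours and 2190 on day 4, sharing with Pcx the rise within 24 hours and the day 4 peak. Hsd11b1 was under the floor before induction and read 565 and 1460 at 12 and 24 hours and 12900 on day 4. For Mdh1 they were Ss18l2 (0.986), Acadvl (0.981), an enzyme of fatty acid oxidation, Gys1 (0.981), a glycogen synthase, Adipoq (0.980), which encodes the fat cell hormone adiponectin, and G0s2 (0.979), an inhibitor of fat breakdown.

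For Idh3a they were Cebpa (0.967), a transcription factor of fat cell differentiation, the lipid droplet gene Cidec (0.961), Mtres1 (0.961), Dgat2 (0.959), which completes triglyceride synthesis, and Cyc1 (0.959), cytochrome c1. Cebpa was under the floor in all 5 samples up to 24 hours and read between 1050 and 1990 from day 2 on, and Idh3a likewise stepped up between 24 hours and day 2. For Sdhb they were Cox8a (0.982), a subunit of cytochrome oxidase, Col15a1 (0.977), Adipoq (0.977), Mtarc2 (0.976) and Alas1 (0.974), the first enzyme of haem synthesis. The list depended on the measure: ranked by Spearman's rho, 1 of 5 genes was shared for each of Pcx, Mdh1 and Idh3a and 0 of 5 for Sdhb. With the members ranked in the same way, Mdh1 stood at rank 23 for Pcx, Idh3a at 136 and Sdhb at 148.

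Markers of other cell types were set beside these changes. Of the adipocyte markers, all 10 on the arrays were called higher in late versus before, where 11.0% of all probe sets were called and 5.92% were called higher. Of the macrophage markers 0 of 5 tested were higher and 2 lower, and their summed intensity lay between 4430 and 4488 before induction and between 2371 and 4143 late. Of the skeletal muscle markers 1 of 6 tested was higher (Des), with sums between 4581 and 5156 before and between 4731 and 8993 late. Mb, myoglobin, which the smooth curve also called, read 486 and 567 before and 4790 on day 28. Acta1 and Tnnt3 were at or below the floor throughout, while Ckm read between 1830 and 3670 and Myog between 323 and 906. Of the endothelial markers 1 of 3 tested was higher (Icam2), with sums between 1442 and 1448 before and between 1329 and 1685 late. For brown fat the sum went from between 0 and 35 before to between 309 and 7653 late. Cox8b made up most of it on days 7 and 28, where it read 1910 and 6610. Cidea, which was not tested, was under the floor up to day 4 and read 152 and 964 on days 7 and 28. The part of the adipocyte share of the cultures in the members' rise was not tested.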

How the data were processed

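RNA of 10 time points was measured on 2 array types, 20 arrays in all. The deposited values are linear intensities per probe set, made by the authors after the array maker's technical manual, per the labels' protocols; the software was not given in the sources used here. The authors' scaling was kept. Each array type was fitted on its own with limma 3.58.1 in R 4.3.3, as 4 stage means with 6 residual degrees of freedom, or as a smooth curve (natural spline, 3 degrees of freedom) over the ordered time points. The floor is the size of the 10th percentile of an array type's values. Testing required a value above the larger of median and floor, 182 on array A and 156 on array B, in at least 2 samples. Of the 110 control probe sets only the 8 for Pcx were tested. The platform annotation gave 1 symbol to 7561 probe sets, several to 224 and none to 5394, controls included. A pathway gene was represented by its probe set with the highest mean. The fit was tested on simulated data. The members and all gene lists were chosen with earlier results of these data known. The number of arrays limits the precision.

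Alternatives were other floors, a generalised log, other filters, quantile normalization, an intensity trend in the prior variance, a spline with 2 degrees of freedom and leaving out each time point. Named genes are the members, genes of the pathway and marker lists, and for each member the 5 genes with the highest Pearson r.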

Additional observations from a re-analysis of the deposited data

How the results depend on the processing

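For the members, 198 of 204 repeats of late versus before and 215 of 216 of the smooth curve kept direction and call. The call of the 5-prime Pcx set of array A was lost with the floor doubled (limma adjusted p = 0.075) and without a filter (0.0576; smooth curve 0.0539), and that of middle A of array A without a filter (0.0944). Of 204 repeats of middle versus early, 50 lost and 4 gained a call. For middle B of array B, early versus before, the doubled floor gave limma adjusted p = 0.259 and no filter 0.178. Without day 4, the log2 change from middle to late turned to -0.07 for the Pcx gene probe set, -0.08 for middle B and -0.18 for the 3-prime set of array A and -0.06 for middle B of array B; the highest values with 1 time point left out were 0.51, 0.31, 0.32 and 0.39. For Idh3a, the change from before to early lay between -0.14 (without the confluent sample) and 0.60 (without the preconfluent one). The count of other pathway genes called in late versus before went from 11 to 6 without a filter. The cause was not tested.

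Over all probe sets, calls in late versus before went from 838 to 423 without a filter and to between 332 and 781 with 1 time point left out. In early versus before they went from 28 to 65 (doubled floor), 15 (generalised log), 15 (no filter), 14 (above the limit in 5 samples) and 0 to 46 (1 time point left out). In middle versus early they went from 83 to 48, 52 and 15 with the doubled floor, the generalised log and no filter, and to between 15 and 140. In late versus middle they went from 22 to 35 (halved floor), 9 (doubled floor), 5 (generalised log), 12 (no filter), 9 (5 samples) and 2 to 116. For the smooth curve they went from 1283 to 642 without a filter and to between 925 and 1269. No paired analysis was possible because the labels carry no replicate numbers and each time point is 1 sample. With 1 sample per time point, a change between 2 neighbouring time points cannot be tested, and a low signal under the floor gives a bound in place of a fold.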
